A study of Mus musculus with 29 samples.

Results

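The enzymes that break down the branched-chain amino acids were followed at the mRNA level in mouse hearts during heart failure (HF) and recovery. They were taken by gene symbol as Bcat2, Bckdha, Bckdhb, Dbt, Bckdk, Ppm1k, Ivd, Hibch, Hibadh and Mut, and all 10 were found among the 29,955 genes of the deposited table. Each of the 10 also passed the filter for testing, which asked for 0.5 FPKM or more on average and left 12,759 genes. FPKM are fragment counts scaled by transcript length and by the number of mapped fragments, so that levels of different genes can be set side by side per transcript length.

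All hearts came from the strain labelled C57BL6, and the methods give male mice that were 3 months old at the start. HF was induced for 5 weeks with L-NAME, which blocks nitric oxide synthases, at 0.3 mg/ml in drinking water that also held 1% NaCl, and from the end of the initial week with angiotensin II at 0.7 mg/kg/day from an osmotic pump that runs for 28 days. The 24 libraries used came from HF week 3 (2) and week 5 (3), from Recovery weeks 7, 9 and 13 (2 each), 11 (3) and 19 (5), and from untreated mice, Control week 19 (5). The recovery groups received the same 5 weeks of agents and then plain water, for 2, 4, 6, 8 or 14 weeks. The HF week 5 hearts were therefore 14 weeks younger than the controls they are compared with here, so that HF and age cannot be told apart in that comparison. The same holds for HF week 3 against Control week 19, for each recovery group against HF week 5 and for Recovery weeks 7 to 13 against Control week 19, since their ages differ. In HF week 3 against HF week 5, age and the length of treatment cannot be told apart. Recovery week 19 and Control week 19 had the same age. The labels name the whole heart or the whole ventricle, and the methods name apical portions.

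Leucine, isoleucine and valine lose their amino group to the mitochondrial transaminase Bcat2, and the resulting keto acids are committed to oxidation by the branched-chain keto acid dehydrogenase complex (BCKDH). The complex is built from the E1 subunits Bckdha and Bckdhb, the E2 core Dbt and the shared E3 subunit Dld. It is switched off when the kinase Bckdk phosphorylates E1 and switched on when the phosphatase Ppm1k removes the phosphate. Beyond BCKDH the routes separate: Ivd acts on the leucine product, Hibch and Hibadh on the valine products, and Mut, methylmalonyl-CoA mutase, delivers the carbon of valine and isoleucine to the tricarboxylic acid (TCA) cycle as succinyl-CoA. The heart oxidizes these amino acids as a minor fuel, and Klf15 is known as a transcription factor that supports the expression of the pathway in cardiac muscle.

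RefSeq promoter sequences of build GRCm38.p6 were at hand for 8 of the 10 genes, and those of Dbt and Mut were not used here. The 250 bases before the annotated start were searched on both strands for CCAAT, for AAGGTCA, the extended half-site of the estrogen-related receptors, for GGGTGTG, a motif of Krüppel-like factors, and for the E-box CACGTG. The 3 promoters shown were chosen after the values were seen: those of Ivd and Hibadh, which were lower in HF with and without the library that stands apart, and that of Ppm1k, which did not pass the test. Capitals mark CCAAT or its reverse complement.
Ivd (chr2:118861744-118861993, plus strand): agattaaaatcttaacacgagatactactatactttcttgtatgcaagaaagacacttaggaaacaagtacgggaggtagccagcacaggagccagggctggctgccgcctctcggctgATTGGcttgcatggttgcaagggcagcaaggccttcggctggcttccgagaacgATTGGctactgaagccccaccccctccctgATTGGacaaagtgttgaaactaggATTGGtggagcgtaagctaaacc
Hibadh (chr6:52640301-52640550, minus strand): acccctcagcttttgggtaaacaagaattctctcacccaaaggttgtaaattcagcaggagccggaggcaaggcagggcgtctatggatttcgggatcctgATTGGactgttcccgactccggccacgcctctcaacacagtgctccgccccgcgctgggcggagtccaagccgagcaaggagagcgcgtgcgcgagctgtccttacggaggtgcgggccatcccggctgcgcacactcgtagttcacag
Ppm1k (chr6:57535488-57535737, minus strand): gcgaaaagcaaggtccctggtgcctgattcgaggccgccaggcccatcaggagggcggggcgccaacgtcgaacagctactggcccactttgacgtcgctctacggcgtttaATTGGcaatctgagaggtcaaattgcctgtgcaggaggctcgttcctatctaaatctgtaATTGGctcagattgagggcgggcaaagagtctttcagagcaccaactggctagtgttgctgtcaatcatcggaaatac

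The Ivd window held CCAAT on the minus strand at 4 places, starting 131, 77, 47 and 23 bases before the start. Of all 32,851 promoter windows, 0.84% held this motif at 4 or more places. The Ppm1k window held it at 2 places and the Hibadh window at 1, against 33.8% of all windows with at least 1 and 10.1% with at least 2. Among the 8 genes, 5 held CCAAT in a window: Ivd, Hibadh, Ppm1k, Bckdk and Bckdhb. None of the 8 held the half-site, the Krüppel-like motif or the E-box, which were present in 4.08%, 6.93% and 6.02% of all windows. These matches describe the letters of the windows and were not tested against expression.

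Some libraries stood apart before any comparison was made. HF week 5 library 1 had a summed level of 81,731 FPKM over 4 markers of atrial cardiomyocytes (Myl7, Myl4, Sln and Nppa), against 2515 and 2229 in the other HF week 5 libraries, 7737 and 14,050 in HF week 3, where Nppa is listed at 0 so that the sum covers the other 3 markers, and 89.6 to 349 in the controls. Myl7 itself was at 18,388, 152 and 6.16 FPKM in the HF week 5 libraries and at 1805 and 5773 in HF week 3, and it stayed at or below 3.56 FPKM in every control and recovery library. Adipocyte markers summed to 47.0 and 51.6 in HF week 5 libraries 1 and 2 and to 44.1 and 25.1 in HF week 3, and to at most 0.777 in the others. HF week 3 library 1 listed 12,816 genes above 0, where the other libraries listed 16,339 to 18,091, and the HF week 3 libraries correlated with each other at r = 0.885 across genes. Of the 10 cardiomyocyte markers, Myh6, Actc1, Myl2 and Mb are listed at 0 in all controls, Myh6 in HF week 5, and Myh6 and Mb in Recovery week 19, while no marker of this list is at 0 in the remaining groups. The share of FPKM in the 10 most abundant genes was 14.6% to 18.8% at weeks 5 and 19 and 27.9% to 37.4% during Recovery weeks 7 to 13; HF week 3 libraries 1 and 2 had 19.8% and 37.5%. None of the 10 breakdown genes is listed at 0 in any library.

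In the controls the 10 transcripts covered a wide range. Bckdha was the most abundant with 274 ± 28.0 FPKM (mean ± SD, n = 5), followed by Hibadh with 136 ± 9.87 and Ivd with 135 ± 30.5, whose libraries overlapped, and by Bcat2 with 112 ± 13.6. Bckdhb stood at 57.6 ± 2.99, Bckdk at 40.8 ± 2.28, Hibch at 34.7 ± 3.41 and Mut at 14.6 ± 1.52. Ppm1k with 10.9 ± 1.299 and Dbt with 10.5 ± 0.917 were the least abundant and overlapped. Within the complex, the E1 alpha transcript thus exceeded that of E1 beta by 4.01- to 5.40-fold and that of the E2 core by 24.4- to 27.2-fold in the 5 control libraries.

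**Figure D1:**
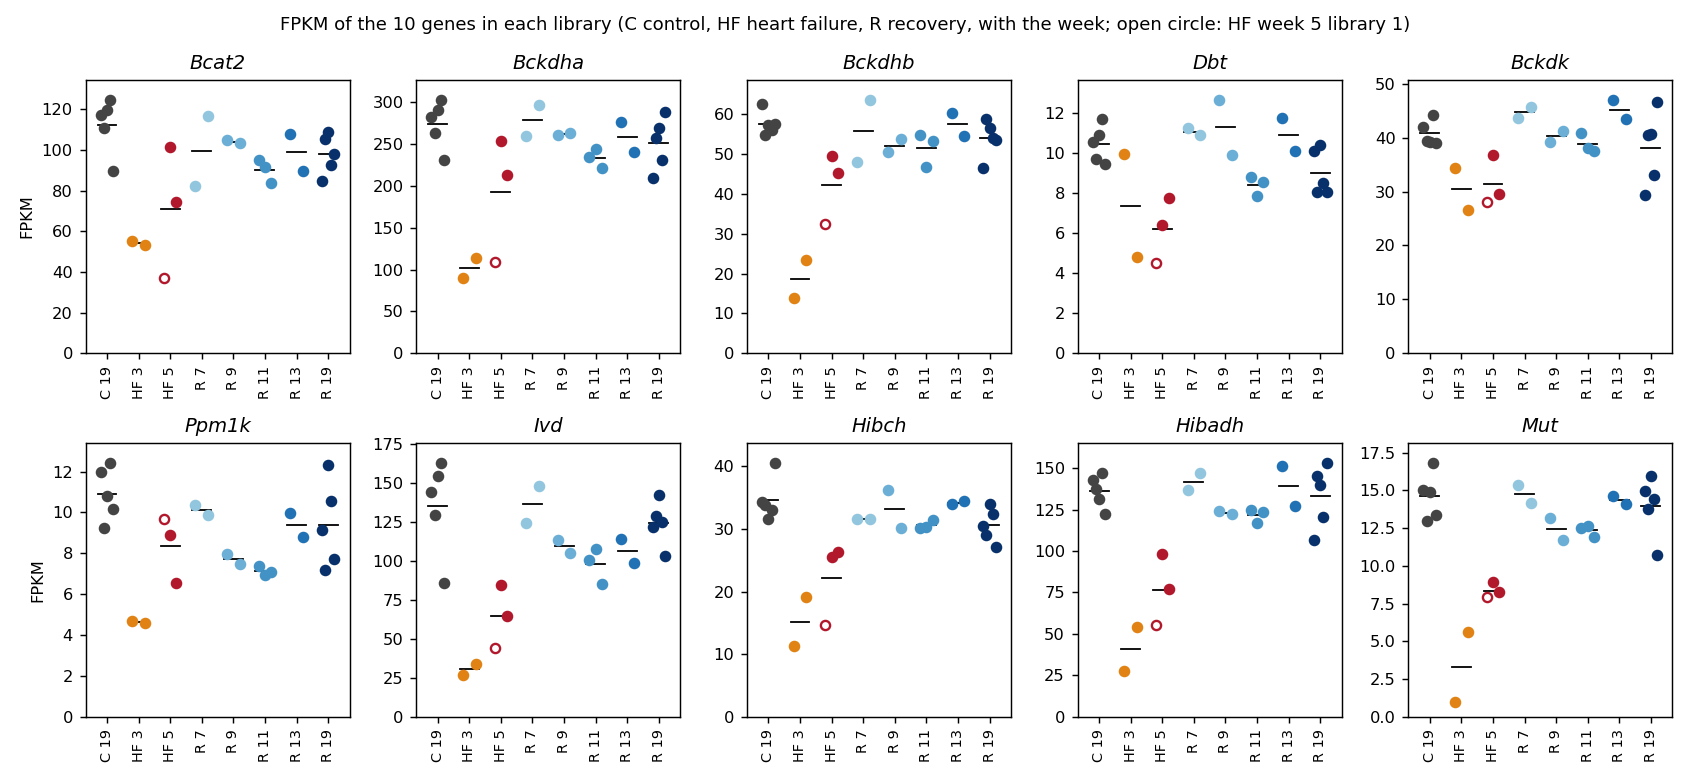
Level in FPKM (vertical axes, from 0) of each of the 10 genes in each of the 24 libraries, by group (horizontal axes; C, control; HF, heart failure; R, recovery; with the week); points are libraries and lines are group means. The HF libraries lie below the controls for most genes, HF week 5 library 1 (open circle) is the lowest of its group for 9 of them, and most recovery libraries are back at or near the control range.

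The breakdown genes were lower in HF at week 5. With limma on log2(FPKM + 0.5) and Benjamini-Hochberg adjustment over all genes tested, 9 of the 10 fell against Control week 19, where 12.4% of all genes tested were called lower, and at the unadjusted p under 0.05 used in the study 10 of 10 were lower (17.7% of all genes). The median log2 fold change of the 10 was -0.71, against 0.04 over all genes. The levels did not overlap between the groups for 7 of the 10 genes (14.7% of all genes were lower without overlap). In bulk tissue, fewer cells of a type and less RNA per cell cannot be told apart, and the p-values measure the spread between these libraries, since the columns are not linked to single animals.

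Leaving out HF week 5 library 1 moved most of these values. Without it, 2 of the 10 genes were called, Ivd and Hibadh, where 6.45% of all genes were called lower, and the median log2 fold change of the 10 was -0.45. When the HF week 3 libraries were left out of the fit as well, a setting chosen after seeing the data, 6 were called: Dbt, Ppm1k, Ivd, Hibch, Hibadh and Mut, against 11.4% of all genes. All 10 estimates were below 0 without library 1; leaving out the HF week 3 libraries as well changes their errors and not the estimates. HF week 5 library 3, which had the lowest atrial and adipocyte marker sums of its group, lay below the whole control range for all 10 genes, library 1 for 9 and library 2 for 8. Markers of other cell types were called higher in HF week 5 in the limma fit with all libraries, where 11.6% of all genes were called higher. Called were 6 of 8 fibroblast markers (summed level 357 to 707 FPKM, against 253 to 360 in the controls), 4 of 7 endothelial markers (369 to 475 against 257 to 327) and 4 of 6 smooth muscle and pericyte markers (164 to 249 against 98.2 to 126). Library 2 lay inside the control range for the fibroblast sum, at 357. None of these lists held a lower call, and no leukocyte marker was called. The median log2 fold changes of these lists were 0.67, 0.51 and 0.78, with single markers from Postn at 1.81 to Rgs5 at -0.66 (adjusted p = 0.139) and Kdr at -0.33 (adjusted p = 0.394). Among the 10 cardiomyocyte markers, Tnnt2 (-0.20), Tnni3 (0.03), Actn2 (-0.07), Ryr2 (-0.41) and Ttn (0.28) were not called, Pln was lower (-0.87), and Actc1, Myl2 and Mb, which are listed at 0 in the controls, were called higher, while Myh6 is listed at 0 in both groups. The part of these marker signals in the lower levels was not tested. Leaving out Control week 19 libraries 1, 3 or 4 in turn left 5 calls each, where 10%, 9.64% and 9.58% of all genes were called lower.

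Ivd, isovaleryl-CoA dehydrogenase of the leucine route, changed most. It was at 144, 129, 155, 163 and 85.6 FPKM in the controls and at 44.3, 84.6 and 64.5 FPKM in HF week 5. The groups lay apart by a narrow margin, between the lowest control and HF library 2. The log2 fold change was -1.08 ± 0.20 (SE; limma adjusted p = 0.000896), and -0.84 ± 0.20 without library 1 (adjusted p = 0.0121). Across the leave-one-out fits it ranged from -1.30 to -0.84 and was called in all 8.

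In the valine route, Hibadh, 3-hydroxyisobutyrate dehydrogenase, was at 122 to 147 FPKM in the controls, with a median of 137, and at 55.2, 98.2 and 76.8 in HF week 5. No HF library reached the control range. The log2 fold change of Hibadh was -0.86 ± 0.18 (limma adjusted p = 0.00259) and -0.64 ± 0.19 without library 1 (adjusted p = 0.0333). Hibch, the hydrolase that frees 3-hydroxyisobutyrate from coenzyme A, was at 31.6 to 40.5 FPKM in the controls, with a median of 33.9, and at 14.6, 25.5 and 26.3 in HF week 5. It was lower by 0.68 ± 0.17 on the log2 scale (log2 fold change -0.68, limma adjusted p = 0.00671), and by 0.41 ± 0.15 (log2 fold change -0.41, adjusted p = 0.0805) without library 1.

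Mut, the mutase at the end of the propionate branch, had the closest HF week 5 values of the 10 genes. Its levels were 15.1, 12.97, 14.9, 16.8 and 13.4 FPKM in the controls and 7.90, 8.91 and 8.28 in HF week 5, with a gap between the groups. The log2 fold change of Mut was -0.77 ± 0.27 (limma adjusted p = 0.0427). Without library 1 the estimate was -0.73 ± 0.31 (adjusted p = 0.144), and with the HF week 3 libraries left out too it was -0.73 ± 0.12 (adjusted p = 0.000789), so that the estimate hardly moved and its error did.

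Bcat2, the transaminase that opens the pathway, was at 117, 111, 120, 125 and 89.7 FPKM in the controls and at 37.1, 101.4 and 74.5 in HF week 5. HF library 2 lay inside the control range, and library 1 was by far the lowest. The log2 fold change of Bcat2 was -0.77 ± 0.21 (limma adjusted p = 0.0131) and was -0.36 ± 0.15 (adjusted p = 0.140) without library 1.

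Of the BCKDH subunits, the E2 core Dbt fell to 4.50, 6.38 and 7.75 FPKM in HF week 5 from 9.45 to 11.7 in the controls, with no overlap. Its log2 fold change was -0.73 ± 0.18 (limma adjusted p = 0.00621) and -0.54 ± 0.19 (adjusted p = 0.0717) without library 1. Bckdha, E1 alpha, was at 231 to 302 FPKM in the controls and at 109, 254 and 213 in HF week 5, where library 2 was within the control range. The log2 fold change of Bckdha was -0.59 ± 0.19 (limma adjusted p = 0.0297) and moved to -0.23 ± 0.14 (adjusted p = 0.318) without library 1. Bckdhb, E1 beta, was at 54.6 to 62.5 FPKM in the controls and at 32.4, 49.5 and 45.1 in HF week 5, without overlap. Its log2 fold change was -0.46 ± 0.15 (limma adjusted p = 0.0323), and -0.28 ± 0.15 without library 1 (adjusted p = 0.259). The ratio of Bckdha to Bckdhb was 3.38, 5.13 and 4.73 in HF week 5, of which library 1 was below the control range of 4.01 to 5.40. That of Bckdha to Dbt was 24.3, 39.7 and 27.5. Library 1 was just below its control range of 24.4 to 27.2, and libraries 2 and 3 were above it.

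With all libraries in the fit, the regulators of the complex had the smallest differences; without library 1 the smallest were those of Bckdha and Bckdhb. The kinase Bckdk was at 39.0 to 44.2 FPKM in the controls and at 28.0, 36.8 and 29.6 in HF week 5, without overlap, and its log2 fold change was -0.38 ± 0.13 (limma adjusted p = 0.0404, and 0.202 without library 1). The phosphatase Ppm1k was at 11.996, 9.25, 10.8, 12.4 and 10.1 FPKM in the controls and at 9.67, 8.88 and 6.56 in HF week 5. Its groups overlapped through library 1, and the log2 fold change of -0.37 ± 0.15 did not pass the adjusted test (limma adjusted p = 0.0736). Ppm1k was the only gene of the 10 whose estimate was larger in size without library 1, at -0.48 ± 0.17 (adjusted p = 0.0703).

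**Figure D2:**
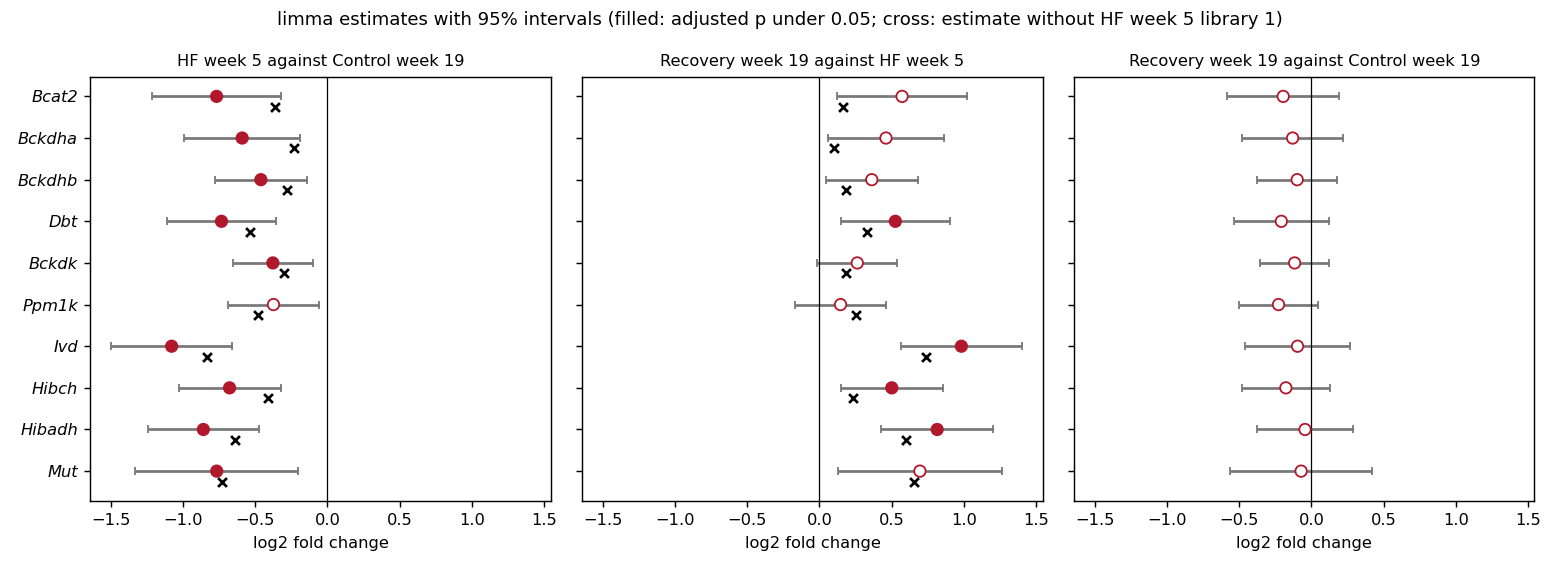
Log2 fold change of the 10 genes (horizontal axes) in the 3 main comparisons, with 95% intervals from limma; filled points passed an adjusted p under 0.05 and crosses give the estimate without HF week 5 library 1. The estimates lie left of 0 in HF, right of 0 in Recovery week 19 against HF, and near 0 in Recovery week 19 against control, and in the 2 comparisons with HF week 5 the crosses lie nearer to 0 than the points for all genes but Ppm1k.

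At the transcript level the balance of kinase to phosphatase did not differ detectably between the 3 main groups. The ratio of Bckdk to Ppm1k was 3.50, 4.26, 3.64, 3.57 and 3.85 in the controls, 2.89, 4.14 and 4.51 in HF week 5, and 3.21, 5.65, 3.31, 3.14 and 6.04 in Recovery week 19. Recovery week 19 was split, with libraries 2 and 5 above every control and the other 3 below every control. Libraries 2 and 5 also had the highest leukocyte marker sums of this group (312 and 299 FPKM) and its lowest relative depth (0.847 and 0.727, see the processing section). The part of these in the split was not tested. In exact permutation tests over libraries, two-sided, the difference in log2 ratio was -0.0043 for HF week 5 against control (p = 0.982, 56 arrangements), 0.12 for Recovery week 19 against HF week 5 (p = 0.714, 56 arrangements) and 0.11 for Recovery week 19 against control (p = 0.548, 252 arrangements). Adjusted over the 3 tests, each permutation p was 0.982. The direction of the HF difference turned when library 1 was left out (0.18). In HF week 3 the ratio was 7.36 and 5.81, in Recovery weeks 7 to 13 it was 4.21 to 5.53, and 8 of the 9 libraries of these recovery weeks lay above the highest control; these groups were not tested for the ratio.

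**Figure D3:**
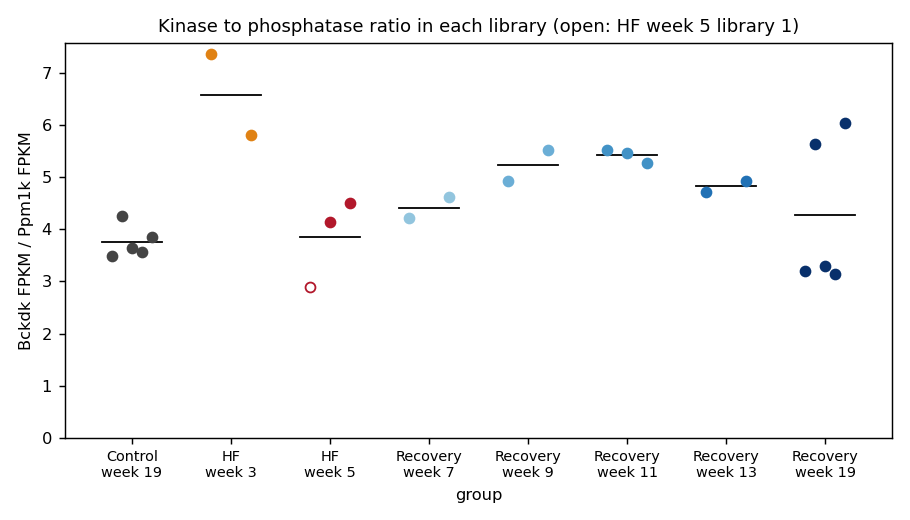
Ratio of Bckdk to Ppm1k in FPKM (vertical axis, from 0) in each library by group (horizontal axis); points are libraries, lines are group means and the open circle is HF week 5 library 1. Controls lie between 3.50 and 4.26, HF week 3 has the highest group mean, and Recovery week 19 falls into 3 libraries near 3.2 and 2 libraries at 5.65 and 6.04.

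The other genes of the pathway were taken from lists for transport, the opening steps, each amino acid, the propionate branch and transcription. Of 18 other enzymes that could be tested, 12 were lower in HF week 5 and none higher, with a median log2 fold change of -0.49. Of all genes tested, 12.4% were called lower and 11.6% higher. Bcat1, the cytosolic transaminase, stayed below the filter with a mean of 0.344 FPKM and was not tested. Dld, the E3 subunit that BCKDH shares with the pyruvate and 2-oxoglutarate dehydrogenases, fell from 141 ± 8.64 FPKM (n = 5) to 79.0 ± 21.0 (n = 3), a log2 fold change of -0.87 ± 0.14 (limma adjusted p = 0.000286). It was at 54.9, 89.0 and 93.2 FPKM in HF week 5, all below the lowest control of 130 FPKM. In the leucine route Auh, a hydratase, changed by -1.08 and Mccc1, a subunit of methylcrotonoyl-CoA carboxylase, by -0.82 on the log2 scale. Acat1, the thiolase of the isoleucine route, changed by -0.89, Aldh6a1, which follows Hibadh, by -0.79, Echs1, a hydratase of the valine route, by -0.82, and Mmab, which prepares the cofactor of Mut, by -0.96 on the log2 scale. Mmadhc of the same cofactor route changed by -0.46. Each of these passed the limma test, with adjusted p-values from 0.000135 (Aldh6a1) to 0.0127 (Mmadhc). Without HF week 5 library 1, 6 of the 18 enzymes were called lower (6.45% of all genes): Dld, Auh, Mccc1, Acat1, Aldh6a1 and Echs1. Mmab (-0.71, limma adjusted p = 0.0734) and Mmadhc (-0.34, adjusted p = 0.107) were then not called. With the HF week 3 libraries left out too, 11 of the 18 were called lower (11.4% of all genes).

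The 6 transporter genes, which include the plasma membrane carriers and the mitochondrial carrier Slc25a44, held no call in either direction. Their median log2 fold change was 0.04, and their estimates ran from -0.17 to 0.37. For Slc25a44 the estimate was -0.17 with a 95% interval of -0.46 to 0.12.

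The 4 transcription genes were all called lower in HF week 5 (12.4% of all genes were). Klf15 was at 29.5, 29.1, 28.9, 31.8 and 20.9 FPKM in the controls and at 10.8, 9.83 and 9.18 in HF week 5, with a wide gap between the groups and little spread within HF. The log2 fold change of Klf15 was -1.44 ± 0.17 (limma adjusted p = 3.85e-05). Ppara, a nuclear receptor for fatty acids, changed by -1.48 (adjusted p = 7.76e-05), Esrra, an estrogen-related receptor, by -0.71 (adjusted p = 0.00145) and the coactivator Ppargc1a by -0.93 (adjusted p = 0.0393) on the log2 scale. Without library 1, 3 of the 4 were called lower (6.45% of all genes were). Ppargc1a was then at -1.01 and not called (limma adjusted p = 0.0884).

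**Figure D4:**
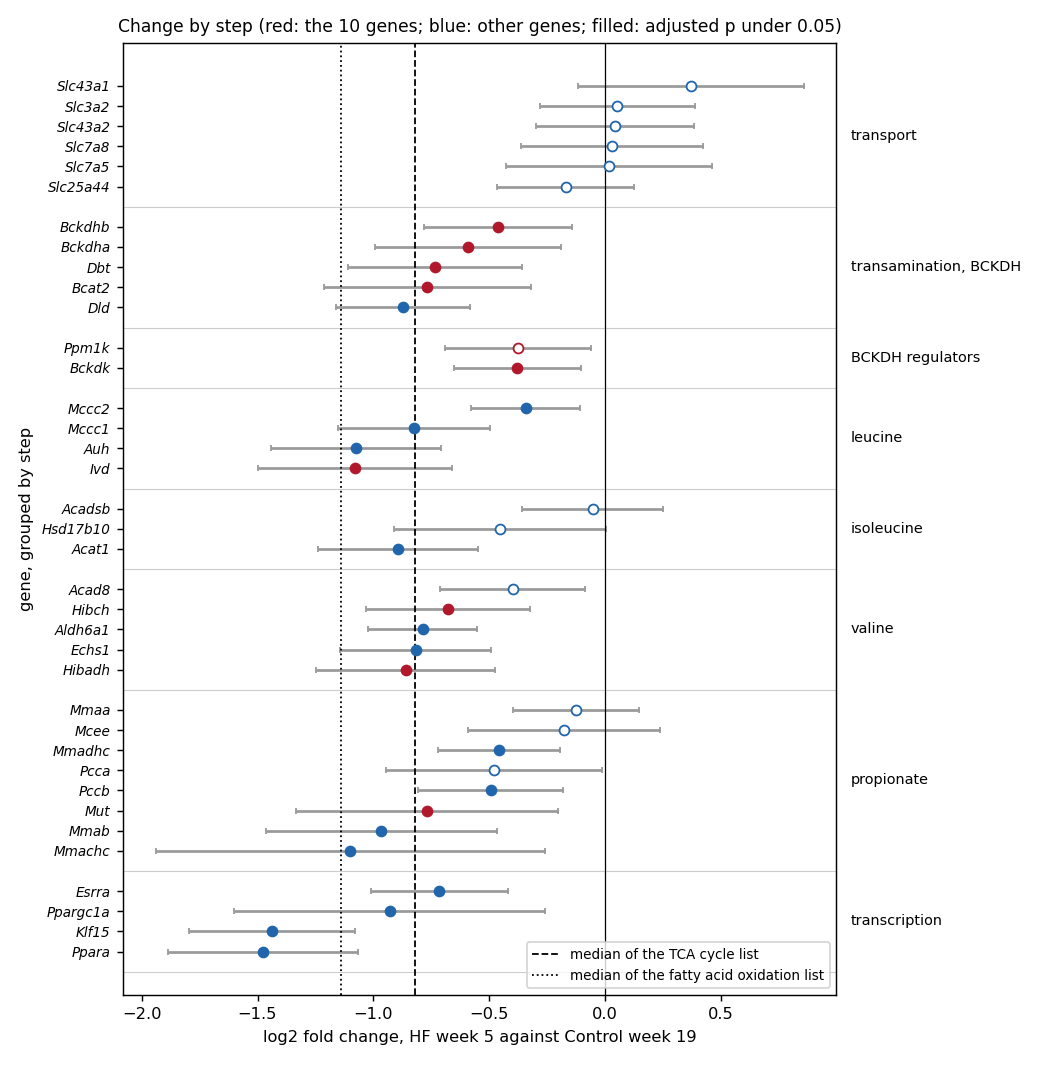
Log2 fold change in HF week 5 against Control week 19 (horizontal axis) with 95% intervals from limma, for the 10 genes (red) and other genes of the pathway (blue), grouped by step (vertical axis); filled points passed an adjusted p under 0.05. The 6 transport genes lie around 0, most enzymes lie left of 0, and the vertical lines give the medians of the TCA cycle (-0.82) and fatty acid oxidation (-1.14) lists.

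Other routes of mitochondrial oxidation were lower too. Of 16 TCA cycle genes, 12 were lower, with a median log2 fold change of -0.82 (range -1.14 to -0.24), and of 14 fatty acid oxidation genes 13 were lower with a median of -1.14. Of 11 genes of the pyruvate dehydrogenase complex and its regulators 8 were lower and 1 higher with a median of -0.65. Of all genes tested, 12.4% were called lower and 11.6% higher. Without library 1 the counts of lower genes in these 3 lists were 9, 11 and 5, where 6.45% of all genes were called lower. To compare the 10 genes with the cycle that their products enter, the median of the TCA cycle list was subtracted in each library and the fit repeated. Relative to it, 4 of the 10 were higher in HF week 5 than in the controls, in a fit in which 83.3% of all genes tested were called higher: Bckdha by 0.32 ± 0.11, Bckdhb by 0.45 ± 0.13, Bckdk by 0.54 ± 0.14 and Ppm1k by 0.54 ± 0.22 on the log2 scale, with limma adjusted p-values of 0.0101, 0.00299, 0.00165 and 0.0301. For the other 6 the differences from the TCA median ran from -0.16 (Ivd) to 0.24 (Hibch) with limma adjusted p-values of 0.155 or more. The 95% interval was -0.22 to 0.33 for Hibadh and -0.51 to 0.18 for Ivd. Bckdhb and Bckdk were called in this way whichever HF week 5 library was left out. Bckdha was not without library 3 (adjusted p = 0.0543), and Ppm1k was not without library 1 (adjusted p = 0.415), where Bcat2 was called in its place (0.29, adjusted p = 0.0492).

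At HF week 3, 2 weeks before the end of the induction, the levels were lower still for several of these genes. All 10 were lower than in Control week 19 (limma, adjusted p under 0.05; 27.6% of all genes tested were called lower); without HF week 3 library 2, 8 were (35.6%), and without Control week 19 library 4, 9 were (25.4%). Mut was at 0.943 and 5.59 FPKM, a log2 fold change of -2.35 ± 0.31, Ivd at 27.1 and 34.1 (-2.10 ± 0.23), Hibadh at 27.6 and 53.8 (-1.80 ± 0.21) and Bckdhb at 13.8 and 23.4 (-1.65 ± 0.17). The change was smallest for Bckdk, at 34.5 and 26.6 FPKM (-0.42 ± 0.15), and for Dbt, at 9.93 and 4.82 (-0.55 ± 0.20), whose library 1 lay in the control range. Against HF week 5, 6 genes were lower at week 3 (13.1% of all genes): Bckdha, Bckdhb, Ppm1k, Ivd, Hibadh and Mut. Their log2 fold changes ran from -0.78 (Ppm1k) to -1.58 (Mut), with limma adjusted p-values from 0.000865 to 0.0231. Without HF week 3 library 1, which listed fewer genes, 1 gene was called lower (0.44% of all genes), and without library 2, 7 were called lower (31.7%) and 1 higher (21.3%); each of these fits leaves 1 library at week 3, which is assumed to vary like the other groups. Without HF week 5 library 2, 3 genes were called lower (4.4% of all genes). The summed levels of markers of other cell types were above the control ranges given above in both week 3 libraries, at 740 to 747 FPKM for fibroblasts, 408 to 517 for endothelium, 176 to 205 for smooth muscle and pericytes and 178 to 191 for leukocytes (90.8 to 169 in the controls). Their part in these differences, and that of the atrial and adipocyte markers, was not tested.

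**Figure D5:**
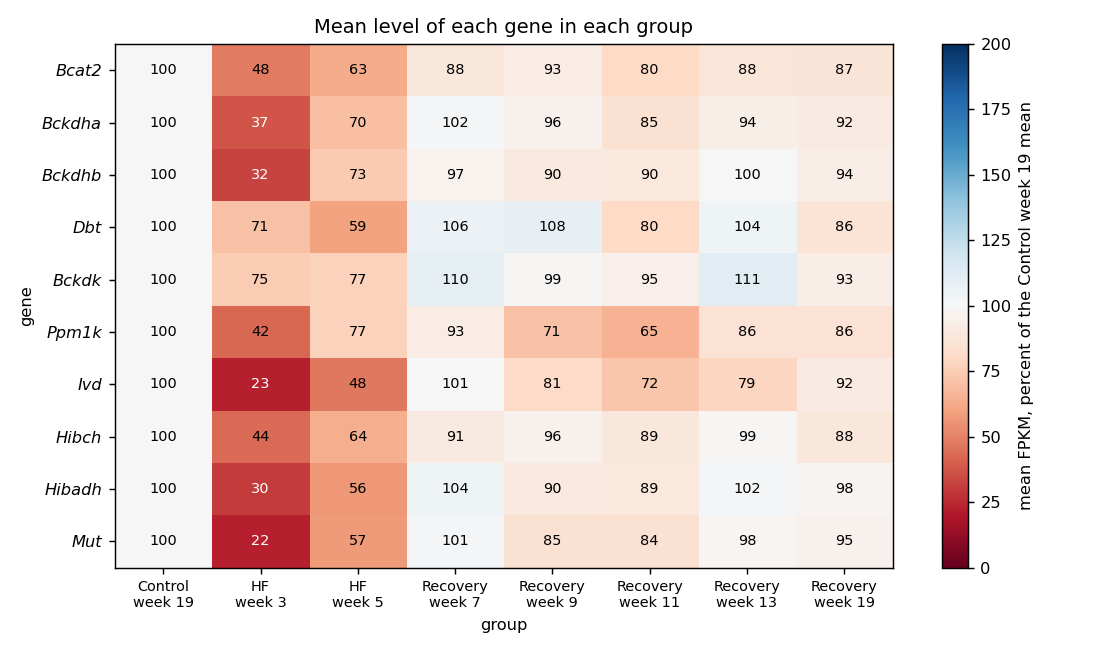
Mean level of each gene (rows) in each group (columns), in percent of its Control week 19 mean, by colour and number. Week 3 of HF holds the lowest percentages for 9 of the 10 genes, Dbt is lowest at HF week 5, and the recovery groups lie between 65% and 111%.

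In Recovery week 7, 2 weeks after the agents were withdrawn, Dbt, Bckdk, Ivd and Hibadh rose against HF week 5 (4 of 10; 8.05% of all genes were called higher), and the means of all 10 lay between 88.5% and 110% of the control means. Ivd was at 125 and 148 FPKM and Hibadh at 137 and 147, with log2 fold changes of 1.12 ± 0.25 and 0.92 ± 0.23 against HF week 5 (limma adjusted p = 0.00622 and 0.0121). The marker sums that were raised in HF week 5 were lower here, at 269 to 355 FPKM for fibroblasts, 249 to 274 for endothelium and 104 in both libraries for smooth muscle and pericytes, and their part in the higher levels was not tested. Without Recovery week 7 library 2 none of the 10 was called (1.83% of all genes higher), and without its library 1 or HF week 5 library 1, 1 was (2.48% and 4.1%). A recovery week left with 1 library, here and below, is likewise assumed to vary like the other groups. In Recovery week 9, Dbt was called (1 of 10; 4.08% of all genes), in week 11 Hibadh (1 of 10; 5.50%), and in week 13 Dbt, Bckdk, Hibch and Hibadh (4 of 10; 5.09%). None was called in weeks 9, 11 and 13 without HF week 5 library 1, where 1.39%, 2.46% and 2.34% of all genes were called higher, nor when any 1 library of the recovery week itself was left out, where 0.00784% to 3.66% were. At the unadjusted p under 0.05, these 4 recovery weeks had 9, 7, 5 and 9 of the 10 genes higher than HF week 5, where 14.4%, 11.5%, 12.5% and 12.4% of all genes were.

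Against Control week 19, none of the 10 genes was called in limma in any of Recovery weeks 7, 9, 11 and 13, where 0%, 0%, 0.00784% and 0.0235% of all genes were called lower and 0.047%, 0.0549%, 0.141% and 0.0549% higher. At the unadjusted p, which 2.17%, 1.61%, 3.56% and 6.25% of all genes passed as lower and 1.44%, 1.98%, 4.89% and 4.18% as higher, Ppm1k was lower in weeks 9 and 11 and Ivd in week 11, and no gene passed in weeks 7 and 13. Ppm1k was at 7.96 and 7.47 FPKM in Recovery week 9 and at 7.39, 6.96 and 7.08 in week 11, all below the lowest control of 9.25 FPKM. Its log2 fold change against control was -0.47 ± 0.17 (limma adjusted p = 1.00) and -0.57 ± 0.15 (limma adjusted p = 0.157) in these weeks. Ivd averaged 109, 97.8 and 106 FPKM in Recovery weeks 9, 11 and 13, or 80.8%, 72.2% and 78.5% of the control mean, inside the wide control range but for 1 library at 85.1 FPKM. In Recovery week 11 all 10 estimates were below 0 (-0.57 to -0.07, median -0.23), and libraries 1, 2 and 3 lay below the control range for 4, 7 and 9 of the 10 genes. The fibroblast markers of these 3 libraries summed to 411, 490 and 679 FPKM and the leukocyte markers to 240, 184 and 282. All of these lay above the control ranges of 253 to 360 and 90.8 to 169. In Recovery week 13 the sums were above these ranges too, at 389 and 504 for fibroblasts and 214 and 310 for leukocytes. There, 0 and 2 of the 10 genes lay below the control range in libraries 1 and 2. The part of these sums in the levels was not tested. In the libraries of these 4 weeks the 10 most abundant genes held a larger share of the FPKM than in the control libraries, as given above, and the part of that in the levels was not tested.

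In Recovery week 19, the breakdown genes stood at 85.9% to 97.6% of the control means. Against HF week 5, 4 of the 10 were higher (limma, adjusted p under 0.05; 12.3% of all genes tested were called higher): Ivd by 0.98 ± 0.20, Hibadh by 0.82 ± 0.18, Dbt by 0.53 ± 0.18 and Hibch by 0.50 ± 0.17 on the log2 scale, with adjusted p-values of 0.00171, 0.00366, 0.0369 and 0.0337. The levels did not overlap between the groups for these 4 and Mut (5 of 10; 14.1% of all genes), and at the unadjusted p 8 of 10 were higher (17.5% of all genes). Ivd was at 122, 129, 143, 125 and 103 FPKM, Hibadh at 106, 145, 140, 120 and 153, and Mut at 14.9, 13.8, 16.0, 14.4 and 10.7, each above the highest HF week 5 library. Bcat2 (0.57 ± 0.21, limma adjusted p = 0.0540), Mut (0.70 ± 0.27, 0.0637), Bckdha (0.46 ± 0.19, 0.0826) and Bckdhb (0.36 ± 0.15, 0.0852) missed the threshold. Bckdk differed by 0.26 ± 0.13 (adjusted p = 0.150) and Ppm1k by 0.15 ± 0.15 (adjusted p = 0.505).

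The same 2 genes that held their call in HF did so here: without HF week 5 library 1, Ivd and Hibadh were called, with log2 fold changes of 0.74 ± 0.20 and 0.60 ± 0.19 (limma adjusted p = 0.0217 and 0.0423), in a fit in which 6.9% of all genes were called higher. The estimates of the other genes then ran from 0.10 to 0.66, and the median of the 10 was 0.24. Of the genes called with all libraries, Dbt was at 0.33 (adjusted p = 0.269) and Hibch at 0.23 (adjusted p = 0.328) without library 1. Bcat2 was then at 0.17, Bckdha at 0.10 and Bckdhb at 0.18. With the HF week 3 libraries left out as well, Mut was called too (0.66 ± 0.12, adjusted p = 0.00154; 11.9% of all genes higher). Without Recovery week 19 library 3 or 4, 2 genes were called (10.5% of all genes higher in each fit). After the TCA cycle median was subtracted in each library, none of the 10 was called higher for Recovery week 19 over HF week 5 and 6 were called lower (81.8% of all genes were called lower): Bcat2, Bckdha, Bckdhb, Bckdk, Ppm1k and Hibch, from -0.31 (Bcat2) to -0.74 (Ppm1k) on the log2 scale. Of these 6, Ppm1k (limma adjusted p = 0.0922) and Hibch (0.0527) were not called without HF week 5 library 1. Bcat2 (0.0984) and Hibch (0.121) were not called without library 3. The share of all genes called in these fits is not given here. Among the other genes of the pathway, Recovery week 19 against HF week 5 had 11 of 18 enzymes and 4 of 4 transcription genes called higher (12.3% of all genes). Without library 1 these counts were 6 and 3 (6.9% of all genes). Klf15 changed by 1.37 ± 0.17 (limma adjusted p = 4.67e-05) and Dld by 0.74 ± 0.14 (adjusted p = 0.000921). Over the same comparison 3 of 8 fibroblast, 3 of 7 endothelial and 5 of 6 smooth muscle and pericyte markers, all 4 atrial markers and the 3 adipocyte markers tested were called lower (12% of all genes). The smooth muscle and pericyte marker Rgs5 was called higher (12.3% of all genes). Of the 10 cardiomyocyte markers, Actc1 (1.06) and Pln (0.81) were called higher. Mb, which is listed at 0 in Recovery week 19, was called lower. The part of these markers in the higher levels of the breakdown genes was not tested. Both comparisons share the HF week 5 libraries, so that a high or low HF library moves them together.

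Compared with controls of the same age, Recovery week 19 gave no call among the 10 genes in limma, nor did any pass at the unadjusted p under 0.05 (0% and 0.862% of all genes were lower by these rules, and 0.0235% and 2.01% higher). All 10 estimates were nevertheless below 0, from -0.04 (Hibadh) to -0.23 (Ppm1k), with a median of -0.12 against -0.01 over all genes. In the same comparison no fibroblast or leukocyte marker was called after adjustment, and 3 of 8 and 4 of 7 were higher at the unadjusted p. The fibroblast markers summed to 312 to 458 FPKM in Recovery week 19 and the leukocyte markers to 136 to 312, with libraries 2, 4 and 5 above the control ranges of 253 to 360 and 90.8 to 169, and their part in the estimates was not tested. The 95% intervals of Ppm1k (-0.50 to 0.05) and Dbt (-0.53 to 0.12) still allow a level below control, and that of Hibadh ran from -0.38 to 0.29. In single libraries, library 3 lay within the control range for all 10 genes, library 1 was below it for 7 and libraries 2, 4 and 5 for 3, 5 and 5. Library 5 was also above it for Bckdk (46.7 FPKM) and Hibadh (153 FPKM). Of the 28 other pathway genes tested, none was called in this comparison.

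Across libraries the 10 transcripts varied together to differing degrees. Over the 22 libraries without HF week 3, the Pearson r of log2 values had a median of 0.75 over the 45 pairs of genes, as a description of libraries that share groups, depth and preparation. Bcat2 and Bckdha were the closest pair (r = 0.96), and Ppm1k was the least like the others (r = 0.18 to 0.55; 0.28 to 0.70 without HF week 5 library 1, when other pairs were lower). Without that library the median was 0.54 and the closest pair was again Bcat2 and Bckdha (r = 0.86). The 5 genes outside the set with the highest r with the mean profile of the 10 over these 22 libraries were Nap1l4 (0.976), Hspa9 (0.969), Pdha1 (0.969), Cpt2 (0.961) and Lclat1 (0.954). Hspa9 is a mitochondrial chaperone, Pdha1 the E1 alpha subunit of pyruvate dehydrogenase and Cpt2 a carnitine palmitoyltransferase of fatty acid oxidation.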

How the data were processed

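RNA enriched for poly(A) was sequenced from both ends. The authors aligned the reads with TopHat to the mouse genome (build mm9 in the submitters' processing notes) and computed FPKM with Cuffdiff, and the deposited FPKM, in a column for each library, are the only values used. Annotation, library type and scaling between libraries are not given in the sources used here. Columns were matched to groups by their names. The 5 columns named for Control week 5 were not used, since 4 samples carry that label, and Recovery week 9 has 2 columns for 3 labelled samples. Library numbers follow the column order and pair nothing.

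The filter kept genes averaging 0.5 FPKM or more. Values were fitted as log2(FPKM + 0.5) by limma 3.58.1 (R 4.3.3), a mean being estimated per group for 8 groups (16 residual degrees of freedom) and eBayes with a trend. Tests were two-sided and calls used a Benjamini-Hochberg adjusted p under 0.05 over 12,759 genes. Fold changes on this scale understate those of low genes. The absolute depth is unknown, and relative depth, read from steps between low values, ran from 0.727 to 1.39 of Control week 19 library 1, with no value for HF week 3 library 1, so precision is given as the spread between libraries. The fit was tested on simulated data with known changes. The alternatives were pseudocounts of 0.1 and 1, other filters, median centring, quantile normalization, fewer groups, the unadjusted p, robust eBayes and leaving out libraries.

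The genes and lists were chosen with earlier results of these data known. Named are the 10 genes, the other pathway genes with the smallest adjusted p-values (at most 12), Klf15 and Dld, Myl7, and the 5 genes closest to the mean profile; 1 pathway gene is counted in the lists but not reported here by name; Bcat1, Slc25a44, Ppargc1a and the single markers other than Myl7 were named after their values were seen. Figures were drawn with Python 3.11.15 and matplotlib 3.10.9.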

Additional observations from a re-analysis of the deposited data

How the results depend on the processing

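The main limits are few HF libraries, HF week 5 library 1 and the age gap to Control week 19. In HF week 5 against control, the count of 9 called genes ranged from 2 to 9 when single libraries were left out (6.45% to 14.4% of all genes lower), and 4 genes were higher relative to the TCA cycle median (83.3% of all genes higher). In Recovery week 19 against HF week 5, the 4 calls became 2 without a filter on low values (6.42% of all genes higher), 7 without the HF week 3 libraries (16.9%), 8 on unadjusted p-values (17.5%) and 2 to 6 with single libraries left out (6.9% to 12.7%), 6 genes were lower relative to the TCA cycle median (81.8% of all genes lower) and none higher, and Ppm1k ran from -0.0096 to 0.25. Against HF week 5, Recovery week 9 gave 3 calls with median centring (5.62% of all genes higher), 5 without the HF week 3 libraries (8.36%) and 0 to 6 with libraries left out (0.00784% to 5.57%), week 11 gave 2 (7.37%), 4 (9.89%) and 0 to 3 (2.08% to 5.86%), week 13 gave 7 without the HF week 3 libraries (9.39%) and 0 to 7 (0.149% to 5.64%), and week 7 gave 0 to 7 (1.83% to 8.96%). HF week 3 against HF week 5 gave 1 to 8 in either direction (0.44% to 31.7% of all genes lower and 0.865% to 21.3% higher). The 16 other pathway genes called lower in HF (12.4% of all genes) became 9 without library 1 (6.45%). The 15 called higher in Recovery week 19 against HF week 5 (12.3%) also became 9 (6.9%). In Recovery week 19 against control, Hibadh ran from -0.10 to 0.033 and Mut from -0.12 to 0.019 with libraries left out, with no call. The log2 kinase to phosphatase difference was 0.0077 with a pseudocount of 0.1 in HF against control and ran from -0.12 to 0.18 with libraries left out, from -0.069 to 0.23 in recovery against HF and from -0.025 to 0.20 in recovery against control. The causes were not tested. No paired analysis was possible because the columns carry no number that links libraries of different groups.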
